A study of Mus musculus with 11 samples.

Results

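Glucose metabolism was described here through 45 mouse genes. They encode enzymes and transporters of glycolysis, the pentose phosphate pathway and the tricarboxylic acid (TCA) cycle. The genes were chosen by name from their textbook roles, with earlier results of these data known, and sorted into 9 branches. Their counts beside all probe sets are therefore a description and not an independent test. A gene was measured by a probe set whose platform annotation gave it as the only symbol. Of the 45 genes, 42 had such a probe set, out of 19937 genes in the whole table, and all 42 were tested. Gpi1, Eno1 and G6pdx, which encode glucose 6-phosphate isomerase, enolase and glucose 6-phosphate dehydrogenase, were not analysed here. The question was how these genes stood after loss of the tumour suppressor p53 and after loss of Pint, a long intergenic non-coding RNA (lincRNA), each against its own control.

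All 11 arrays were made from p53 LSL/LSL mouse embryonic fibroblasts (MEFs) of a C57BL/6 x 129/SvJ background, primary connective tissue cells in which a removable stop cassette silences p53. Every group, controls included, received AdenoCre, a Cre-expressing adenovirus (multiplicity of infection 5, 24 h), which restores p53, and 150 nM doxorubicin, a DNA-damaging drug, for 12 h. Transfection came 24 h before the drug, with control siRNA (3 arrays), p53 siRNA (3 arrays), control ASO (2 arrays) or Pint ASO (3 arrays, a pool of antisense oligonucleotides). The labels do not say that the arrays of a group came from separate cultures, so p-values measure the spread between these arrays, which may be technical. Values are log2 intensities, and a change is the difference of 2 group means on that scale with its standard error (SE). A call is a limma adjusted p (Benjamini-Hochberg over 26038 probe sets) under 0.05.

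Glycolysis splits glucose into pyruvate in the cytosol, and pyruvate is either reduced to lactate and exported or oxidised in mitochondria by pyruvate dehydrogenase and the TCA cycle. The pentose phosphate pathway branches off glucose 6-phosphate and supplies NADPH and ribose, and anaplerotic enzymes refill or drain the cycle. In cultured fibroblasts several glycolytic genes are known targets of hypoxia-inducible factors, and p53 is known to restrain glycolysis in many cell types.

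The libraries matched their labels at Lncpint, the gene of Pint, whose log2 values were 10.41 and 10.23 in the control ASO arrays and 8.60, 8.48 and 8.55 in the Pint ASO arrays. The difference was -1.78 (exact permutation test, two-sided, p = 0.1, the smallest that 3 against 2 arrays allow). Lncpint was also lower with p53 siRNA by -0.54 (exact permutation test, two-sided, p = 0.1, the smallest that 3 against 3 allow), and it was higher in the control ASO than in the control siRNA arrays by 0.71 ± 0.12 (SE, limma adjusted p = 0.0137). Trp53 was not analysed here. Of 12 fibroblast markers, 11 exceeded a log2 value of 6 in every array. Their summed linear level ran from 74013 to 75841 with control siRNA, 83286 to 83932 with p53 siRNA, 71609 to 71692 with control ASO and 59137 to 61233 with Pint ASO. With p53 siRNA 7 of the 12 were called higher and 0 lower, and with Pint ASO 0 were called higher and 9 lower. Over all probe sets 7.97% were called higher and 8.96% lower with p53 siRNA, and 8.49% and 10.7% with Pint ASO. The part of these fibroblast markers in the results below was not tested. In a bulk sample fewer cells of a type and less RNA per cell cannot be told apart. Summed markers of 6 other cell types ran from 746 to 2126 in the control siRNA arrays. Those of macrophages and blood, with 3 of 7 over 6 in every array, ran from 2008 to 2126 with control siRNA, 1225 to 1300 with p53 siRNA, 2015 to 2030 with control ASO and 1593 to 1642 with Pint ASO.

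With p53 siRNA, 16 of the 42 members were called higher and 6 lower, so that 38.1% rose and 14.3% fell. Over all probe sets tested, 7.97% were called higher, 8.96% lower and 16.9% in either direction. With only the 17516 probe sets of 1 symbol in the fit, as every member has, the shares were 12.0% higher and 11.9% lower. Of the risers, 9 lay in the 4 glycolysis branches and 3 in the lactate branch. The 9 include Pgam1, whose only probe set may measure a copy of the gene. The largest rises, which spanned several branches, were those of Idh2, Slc16a3, Pdk1, Pfkfb3 and Aldoc. The fallers were Pcx, Ldhb, Rpe, Pfkfb2, Eno2 and Pgls. The median change of the members was 0.08, beside 0.01 over all probe sets. The study selected genes by a B statistic (log odds of a change) together with fold change limits set for each contrast. At B over 3 alone, which is only part of that selection, 9 members passed, against 3.92% of all probe sets. The knockdown and control arrays did not overlap for 30 of 42 members, against 35.7% of all probe sets.

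With Pint ASO the counts ran the other way: 2 of the 42 members were called higher and 18 lower, or 4.76% and 42.9%. Over all probe sets 8.49% were called higher, 10.7% lower and 19.1% in either direction. With only probe sets of 1 symbol in the fit, the shares were 13.0% higher and 15.6% lower. The median change of the members was -0.16, beside 0.00 over all probe sets, and 33 of the 42 changes lay below 0. The lowest were Slc16a1, Idh1, Pcx, Pdk2 and Pfkm, and the 2 risers were Hk2 and Pck2. B exceeded 3 for 3 members (Slc16a1, Pdk2 and Pcx), against 3.12% of all probe sets, and the groups did not overlap for 28 members, against 40.4%. This contrast rests on 2 control ASO arrays, and the fit took its estimate of spread from all 4 groups. Fitted with its own control alone, 0 members were called higher and 6 lower (Pfkm, Ldhb, Slc16a1, Pdk2, Idh1 and Pcx), against 3.18% and 4.08% of all probe sets. Without control ASO replicate 1 the lower calls numbered 10, while 6.44% of all probe sets were called lower. Without control ASO replicate 2 or Pint ASO replicate 1 they numbered 12, while 7.90% and 8.30% were called lower. The higher calls numbered 0 without control ASO replicate 2 and 1 without Pint ASO replicate 2, while 5.40% and 6.88% were called higher.

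The 2 effects were compared directly. The Pint effect minus the p53 effect was called for 23 members, 20 of them negative and 3 positive, while 18.5% of all probe sets were called, 9.40% negative and 9.15% positive. A group of 8 members rose with p53 siRNA and fell with Pint ASO (Pfkl, Aldoc, Tpi1, Pkm, Slc16a1, Slc16a3, Pdk1 and Idh2). All 8 had a called difference, which follows largely from picking them by opposite calls and adds no separate support. Of the 8, only Slc16a1 kept its Pint ASO call when that knockdown was fitted with its own control alone. Hk2 and Pck2 rose in both. Ldhb, Pgls and Pcx fell in both. For none of these last 5 was the difference called, which does not show that the effects were equal. In 13 members neither knockdown was called (Slc2a1, Hk1, Aldoa, Pfkfb4, Pgd, Rpia, Taldo1, Cs, Idh3a, Ogdh, Sucla2, Fh1 and Mdh2). The share of all probe sets with each of these pairs of calls was not counted. Whether 8, 5 or 13 members is an unusual number was therefore not tested.

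Between the control groups few members were called, although 36 of the 42 changes lay below 0 with a median of -0.09, beside -0.01 over all probe sets. Control ASO against control siRNA gave 1 member higher and 2 lower, beside 4.02% of all probe sets called, 2.29% higher and 1.73% lower. Pfkl was at -0.38, Ldhb at -0.42 and Pck2 at 0.34, and each of these 3 therefore starts from a different level in the ASO arm. All 3 calls were lost without control ASO replicate 1, and that of Pck2 also without control ASO replicate 2 or control siRNA replicates 1 or 3.

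**Figure D1:**
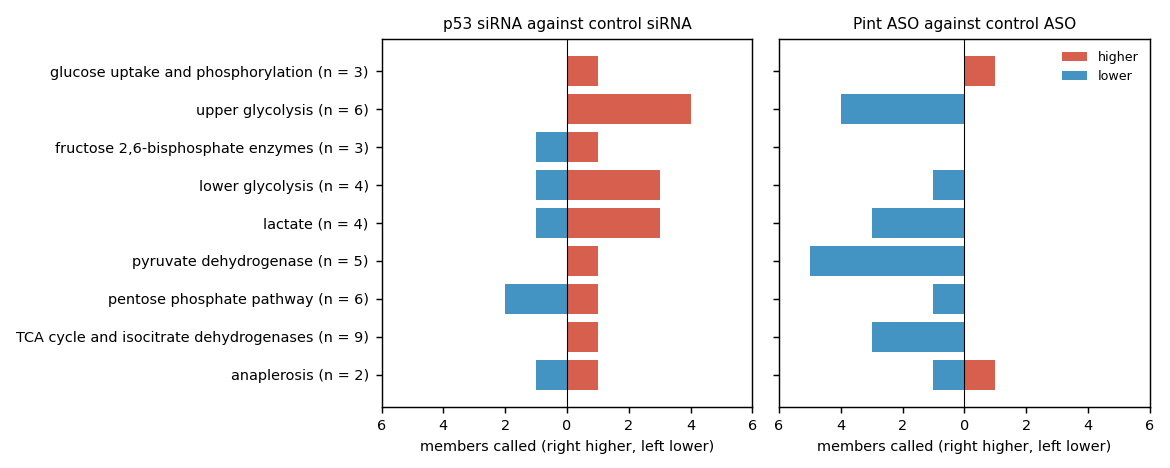
Number of members called higher (bars to the right) or lower (bars to the left) in each of the 9 branches, for p53 siRNA (left panel) and Pint ASO (right panel), each against its own control, with the members measured per branch in brackets. Upper glycolysis had 4 higher with p53 siRNA and 4 lower with Pint ASO, and pyruvate dehydrogenase had 5 lower with Pint ASO. Over all probe sets, 7.97% were called higher and 8.96% lower with p53 siRNA, and 8.49% and 10.7% with Pint ASO.

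Because several of these genes are known targets of factors that read short promoter elements, the 250 bases upstream of each RefSeq start (GRCm38.p6) were searched on both strands for ACGTG, the core of the hypoxia response element, for CACGTG, the E-box read by Myc and ChREBP (which contains ACGTG and is its own reverse complement), and for TTGCATCA, an amino acid response element read by Atf4. Of 44 members with a promoter in the table, 17 held ACGTG, or 38.6% of them, and 8 held CACGTG. Of 27025 genes, 18.5% held ACGTG, 6.86% CACGTG and 0.918% TTGCATCA, which 0 members held, and over all 32851 promoters the shares were 16.6%, 6.02% and 0.791%. Of the 16 members that rose with p53 siRNA, 8 held ACGTG. The windows below are those of the members described array by array that hold it, from 25 bases before the first match to 25 after the last where the 250 bases allow, with the matched letters in capitals and 5′ to 3′ on the gene's strand. A match is a description of these letters and not a bound site.
Slc16a1 (chr3:104638439-104638494, plus strand): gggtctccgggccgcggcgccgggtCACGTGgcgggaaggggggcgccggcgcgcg
Slc16a3 (chr11:120949015-120949066, plus strand): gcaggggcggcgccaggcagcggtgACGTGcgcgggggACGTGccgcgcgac
Pcx (chr19:4510222-4510361, plus strand): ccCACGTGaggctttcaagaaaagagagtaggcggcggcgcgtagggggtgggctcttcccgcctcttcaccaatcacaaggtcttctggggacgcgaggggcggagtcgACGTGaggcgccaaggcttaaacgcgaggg
Pfkfb3 (chr2:11553960-11554014, minus strand): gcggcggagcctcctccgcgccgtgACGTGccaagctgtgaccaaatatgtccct
Pfkfb3 (chr2:11502113-11502168, minus strand): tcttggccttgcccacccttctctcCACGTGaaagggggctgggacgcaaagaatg
Pdk2 (chr11:95041467-95041522, minus strand): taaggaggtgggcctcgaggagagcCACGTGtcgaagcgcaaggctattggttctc

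The plot of log2 values by array shows the 12 members with the largest called change, and they are described in turn by branch.

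**Figure D2:**
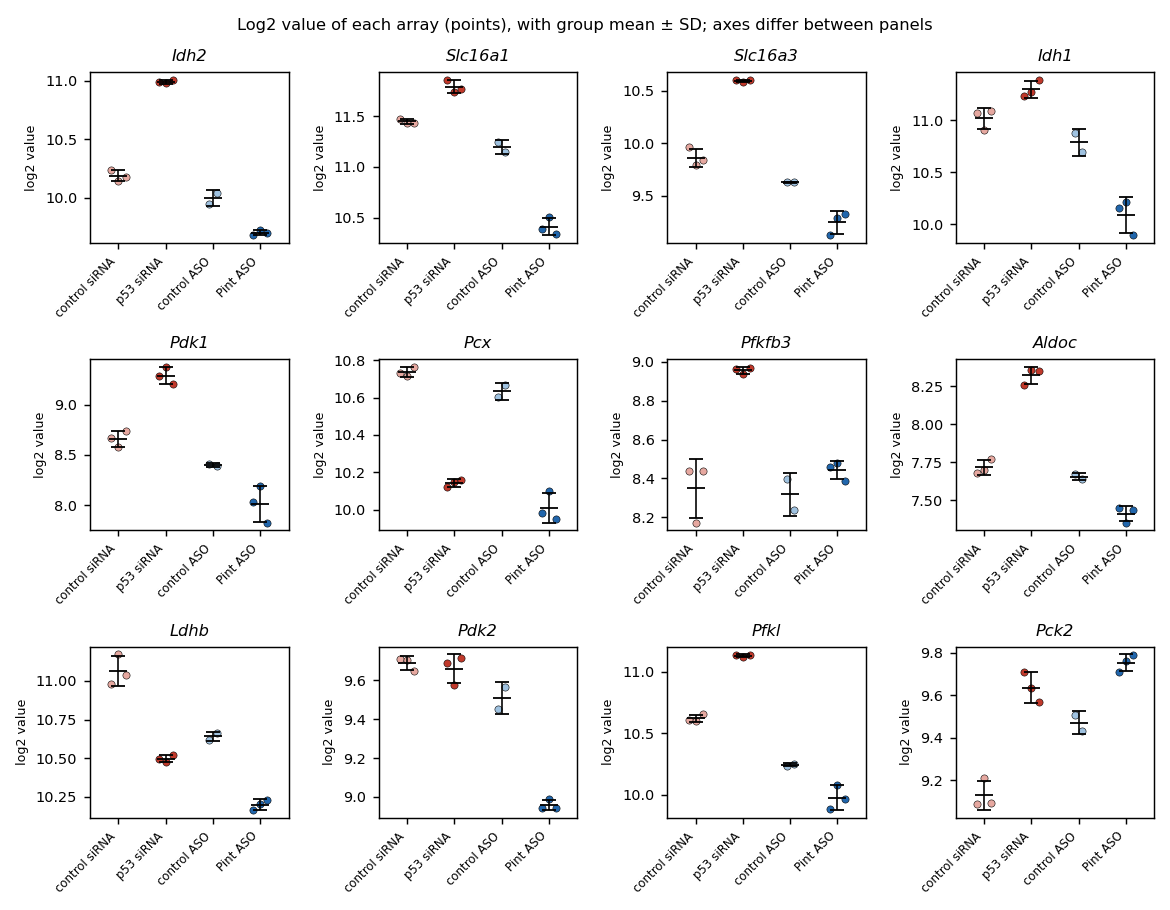
Log2 value of each of the 11 arrays (points) for 12 members, with the mean and SD of each group (control siRNA 3 arrays, p53 siRNA 3, control ASO 2 and Pint ASO 3, along the horizontal axis), on vertical axes that differ between panels. Idh2, Slc16a1, Slc16a3, Idh1, Pdk1, Aldoc and Pfkl stood highest with p53 siRNA and lowest with Pint ASO.

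Upper glycolysis commits glucose to breakdown, and its controlling step is phosphofructokinase, whose liver, muscle and platelet subunits are encoded by Pfkl, Pfkm and Pfkp. Pfkl read 10.61, 10.60 and 10.66 in the control siRNA arrays, 11.14, 11.12 and 11.14 with p53 siRNA, 10.23 and 10.25 with control ASO and 9.88, 10.08 and 9.97 with Pint ASO. The 3 p53 siRNA arrays lay above every other array, and the Pint ASO arrays lay below both controls. The change was 0.51 ± 0.05 (limma adjusted p = 0.00016) with p53 siRNA, and -0.27 ± 0.06 (limma adjusted p = 0.0125) with Pint ASO, a call lost without either control ASO array. Pfkp rose by 0.35 ± 0.07 (limma adjusted p = 0.0104) with p53 siRNA and was at -0.16 ± 0.08 with Pint ASO. Pfkm was at -0.06 ± 0.06 with p53 siRNA and fell by 0.49 ± 0.06 (limma adjusted p = 0.00087) with Pint ASO. The difference between the effects was called for all 3 subunits.

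Aldolase C, encoded by Aldoc, splits fructose 1,6-bisphosphate. The log2 values of Aldoc were 7.68, 7.70 and 7.77 with control siRNA, 8.26, 8.36 and 8.35 with p53 siRNA, 7.67 and 7.64 with control ASO and 7.45, 7.35 and 7.43 with Pint ASO. The p53 siRNA arrays were the highest, the Pint ASO arrays the lowest, and the controls overlapped neither. Aldoc changed by 0.61 ± 0.05 (limma adjusted p = 3.4e-05) with p53 siRNA and by -0.24 ± 0.05 (limma adjusted p = 0.0136) with Pint ASO, lost without control ASO replicate 1. Aldoa, the main aldolase, was at 0.14 ± 0.05 and -0.04 ± 0.06, neither called. Tpi1, triosephosphate isomerase, changed by 0.40 ± 0.06 (limma adjusted p = 0.00119) and by -0.25 ± 0.07 (limma adjusted p = 0.0239), the latter lost without control ASO replicate 2, Pint ASO replicate 1 or Pint ASO replicate 2 and after repeated quantile normalization. Of 6 members of upper glycolysis, 4 were called higher with p53 siRNA and 4 lower with Pint ASO, beside 7.97% and 10.7% of all probe sets. The branch median was 0.38 with p53 siRNA and -0.25 with Pint ASO.

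The enzymes that set fructose 2,6-bisphosphate, the activator of phosphofructokinase, split. Pfkfb3 makes it. With control siRNA the values of Pfkfb3 were 8.44, 8.17 and 8.44, with p53 siRNA 8.96, 8.94 and 8.97, with control ASO 8.40 and 8.24 and with Pint ASO 8.46, 8.48 and 8.39. Only the p53 siRNA arrays stood apart, with no overlap. Pfkfb3 changed by 0.61 ± 0.08 (limma adjusted p = 0.00049) with p53 siRNA and was at 0.12 ± 0.09 with Pint ASO. Pfkfb2, a related bifunctional enzyme, fell by 0.41 ± 0.06 (limma adjusted p = 0.00195) with p53 siRNA, and was at -0.06 ± 0.07 with Pint ASO. Pfkfb4 was at 0.01 ± 0.07 and -0.25 ± 0.08 and was not called.

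Of 3 members of glucose uptake and phosphorylation, 1 was called, higher in both knockdowns. Over all probe sets 7.97% were called higher with p53 siRNA and 8.49% with Pint ASO. Hk2, the inducible hexokinase, rose by 0.27 ± 0.07 (limma adjusted p = 0.0203) with p53 siRNA and by 0.28 ± 0.07 (limma adjusted p = 0.0274) with Pint ASO. The former call was lost when any 1 of 4 siRNA arrays was left out (control siRNA replicates 2 and 3, p53 siRNA replicates 2 and 3) and the latter without control ASO replicate 2 or Pint ASO replicates 1 or 2. Slc2a1, the glucose transporter GLUT1, was at 0.04 ± 0.06 and -0.07 ± 0.06. Hk1, the constitutive hexokinase, is uncertain: its brighter probe set shares its only mRNA accession with 15 probe sets annotated for both Rpl17 and Hk1. By its identifier the brighter probe set also lies among probe sets of genes on another chromosome. It was therefore read beside the other one, and neither probe set was called in either knockdown.

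In lower glycolysis, Pgk1, phosphoglycerate kinase, rose by 0.32 ± 0.05 (limma adjusted p = 0.00152) with p53 siRNA and was at -0.11 ± 0.05 with Pint ASO. Pgam1, phosphoglycerate mutase, rose by 0.28 ± 0.05 (limma adjusted p = 0.00512) with p53 siRNA and was at -0.08 ± 0.06 with Pint ASO. Near-identical copies of this gene are known, and its only probe set cannot be assigned to one with certainty. That probe set lies, by its identifier, among probe sets of genes on another chromosome and may measure a copy. Pkm, pyruvate kinase, changed by 0.16 ± 0.04 (limma adjusted p = 0.0242) and by -0.16 ± 0.04 (limma adjusted p = 0.0354), and both calls were lost on its other probe set, which lies among probe sets of another chromosome and may measure a copy, and when any of several single arrays was left out, namely each of the 6 siRNA arrays for the first and every array except p53 siRNA replicate 1 and Pint ASO replicate 2 for the second. The second was also lost with no filter, after centring the arrays on their medians and after repeated quantile normalization. Eno2, neuronal enolase, ran against this branch, falling by 0.36 ± 0.05 (limma adjusted p = 0.0016) with p53 siRNA and at 0.19 ± 0.06 with Pint ASO, and it had a positive difference between the effects.

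Of 4 members of the lactate branch, 3 were called higher with p53 siRNA and 3 lower with Pint ASO, beside 7.97% and 10.7% of all probe sets. Slc16a1 and Slc16a3 encode the monocarboxylate transporters MCT1 and MCT4, which carry lactate across the cell membrane. Slc16a3 read 9.96, 9.80 and 9.84 in the control siRNA arrays, 10.60, 10.59 and 10.60 with p53 siRNA, 9.63 and 9.63 with control ASO and 9.13, 9.29 and 9.33 with Pint ASO. The p53 siRNA arrays lay highest and the Pint ASO arrays lowest, with the controls between and no overlap within an arm. Slc16a3 changed by 0.73 ± 0.06 (limma adjusted p = 5.08e-05) with p53 siRNA and by -0.38 ± 0.07 (limma adjusted p = 0.00509) with Pint ASO.

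The log2 values of Slc16a1 were 11.48, 11.43 and 11.43 with control siRNA, 11.86, 11.73 and 11.76 with p53 siRNA, 11.25 and 11.14 with control ASO and 10.39, 10.50 and 10.34 with Pint ASO. The same order held for MCT1, with the Pint ASO arrays well below the others. Slc16a1 changed by 0.34 ± 0.06 (limma adjusted p = 0.00287) with p53 siRNA and by -0.78 ± 0.06 (limma adjusted p = 6.64e-05) with Pint ASO, the largest fall among the members in that knockdown. Its level with Pint ASO was 58.1% of the control on the linear scale. The difference between the effects was -1.12 for Slc16a1 and -1.11 for Slc16a3. The upstream window of Slc16a3 held ACGTG at 2 places, and that of Slc16a1 held CACGTG once.

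Lactate dehydrogenase interconverts pyruvate and lactate, with muscle-type and heart-type subunits encoded by Ldha and Ldhb. With control siRNA the values of Ldhb were 10.98, 11.17 and 11.04, with p53 siRNA 10.49, 10.48 and 10.52, with control ASO 10.62 and 10.66 and with Pint ASO 10.17, 10.20 and 10.23. The control siRNA arrays lay highest, and each knockdown lay below its control with no overlap. Ldhb fell by 0.57 ± 0.05 (limma adjusted p = 9.08e-05) with p53 siRNA and by 0.44 ± 0.06 (limma adjusted p = 0.00101) with Pint ASO, and its other probe set was lower by a fitted change of -0.54 and -0.61. That probe set lies, by its identifier, among probe sets of genes on another chromosome and may measure a copy. Ldha rose by 0.15 ± 0.04 (limma adjusted p = 0.0473) with p53 siRNA, close to the threshold: the call was lost when any of 9 single arrays was left out, all except p53 siRNA replicate 1 and Pint ASO replicate 1, with no filter and when the arms were fitted apart. It was at -0.10 ± 0.05 with Pint ASO.

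Pyruvate dehydrogenase, whose catalytic subunit is encoded by Pdha1, is switched off by the kinases Pdk1 to Pdk4. All 5 of these members were called lower with Pint ASO and 1 was called higher with p53 siRNA. Over all probe sets 10.7% were called lower with Pint ASO and 7.97% higher with p53 siRNA. With Pint ASO fitted with its own control alone, only Pdk2 kept its call, and those of Pdk1, Pdk3, Pdk4 and Pdha1 were lost. Pdk1 read 8.67, 8.58 and 8.73 in the control siRNA arrays, 9.29, 9.38 and 9.20 with p53 siRNA, 8.41 and 8.39 with control ASO and 8.03, 8.19 and 7.83 with Pint ASO. The 3 p53 siRNA arrays were the highest and the Pint ASO arrays the lowest. Pdk1 changed by 0.63 ± 0.09 (limma adjusted p = 0.000984) with p53 siRNA and by -0.39 ± 0.10 (limma adjusted p = 0.024) with Pint ASO, the latter lost without either control ASO array or Pint ASO replicate 1.

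The log2 values of Pdk2 were 9.71, 9.71 and 9.65 with control siRNA, 9.69, 9.58 and 9.71 with p53 siRNA, 9.45 and 9.57 with control ASO and 8.95, 8.99 and 8.94 with Pint ASO. Pdk2 was low in the Pint ASO arrays alone, with the siRNA arrays overlapping. It changed by -0.55 ± 0.06 (limma adjusted p = 0.000277) with Pint ASO, and was at -0.03 ± 0.05 with p53 siRNA. Pdk3 fell by 0.37 ± 0.11 (limma adjusted p = 0.0449) with Pint ASO, Pdk4 by 0.18 ± 0.05 (limma adjusted p = 0.0311) and Pdha1 by 0.24 ± 0.06 (limma adjusted p = 0.0295). These last 3 calls were less firm: Pdk3's was lost when any of 9 single arrays was left out, all except control siRNA replicate 2 and Pint ASO replicate 2, Pdk4's without p53 siRNA replicate 2, either control ASO array or Pint ASO replicates 1 or 2, and Pdha1's without control ASO replicate 1 or any Pint ASO array. With no filter and after median centring the calls of Pdk3 and Pdk4 were lost, and that of Pdk4 also after repeated quantile normalization.

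**Figure D3:**
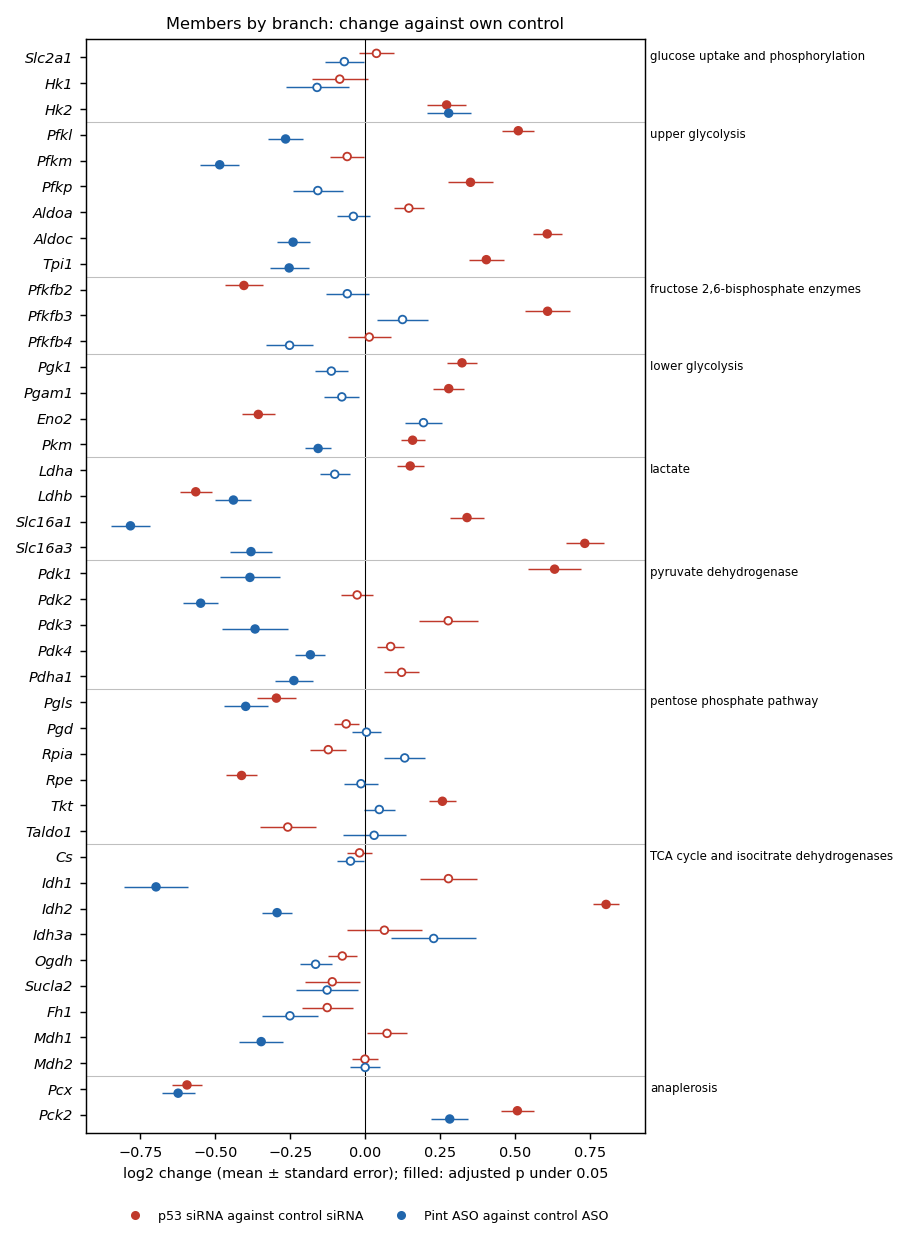
Log2 change of each of the 42 members against its own control, by branch, with the SE as bars, red for p53 siRNA and blue for Pint ASO. Filled points passed an adjusted p under 0.05, as 22 members did with p53 siRNA and 20 with Pint ASO.

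Of 6 members of the pentose phosphate pathway, 1 was called higher and 2 lower with p53 siRNA, and 1 lower with Pint ASO. Over all probe sets the shares were 7.97% higher and 8.96% lower with p53 siRNA, and 10.7% lower with Pint ASO. Rpe, ribulose 5-phosphate epimerase, fell by 0.41 ± 0.05 (limma adjusted p = 0.000487) with p53 siRNA and was at -0.01 ± 0.06 with Pint ASO, and the difference between the effects was called. Pgls, 6-phosphogluconolactonase, fell by 0.30 ± 0.07 (limma adjusted p = 0.0124) and by 0.40 ± 0.07 (limma adjusted p = 0.00481), the former lost without control siRNA replicate 3. Tkt, transketolase, rose by 0.26 ± 0.05 (limma adjusted p = 0.00378) with p53 siRNA and was at 0.05 ± 0.05 with Pint ASO. Pgd, 6-phosphogluconate dehydrogenase, Rpia, ribose 5-phosphate isomerase, and Taldo1, transaldolase, were not called, at -0.06, -0.12 and -0.26 with p53 siRNA and 0.00, 0.13 and 0.03 with Pint ASO.

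Among the 9 members of the branch of TCA cycle enzymes and isocitrate dehydrogenases, 3 were called in either knockdown (Idh1, Idh2 and Mdh1). With p53 siRNA 1 was called higher and with Pint ASO 3 lower, beside 7.97% and 10.7% of all probe sets. Idh2 encodes the NADP-dependent mitochondrial enzyme and Idh1 its cytosolic relative. With control siRNA the values of Idh2 were 10.24, 10.14 and 10.18, with p53 siRNA 10.98, 10.98 and 11.01, with control ASO 9.95 and 10.04 and with Pint ASO 9.68, 9.73 and 9.70. The p53 siRNA arrays were the highest and the Pint ASO arrays the lowest with no overlap. Idh2 changed by 0.80 ± 0.04 (limma adjusted p = 4.58e-06) with p53 siRNA, the largest change of any member, to 1.74 times the control level, and by -0.29 ± 0.05 (limma adjusted p = 0.00303) with Pint ASO.

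Idh1 read 11.07, 10.90 and 11.08 in the control siRNA arrays, 11.23, 11.27 and 11.39 with p53 siRNA, 10.88 and 10.69 with control ASO and 10.16, 10.22 and 9.90 with Pint ASO. The Pint ASO arrays lay clearly below all others, and the p53 siRNA arrays lay above their controls. Idh1 fell by 0.70 ± 0.11 (limma adjusted p = 0.00178) with Pint ASO and was at 0.28 ± 0.09 with p53 siRNA, not called. Mdh1, cytosolic malate dehydrogenase, fell by 0.35 ± 0.07 (limma adjusted p = 0.00972) with Pint ASO, lost without control ASO replicate 1, and was at 0.07 ± 0.07 with p53 siRNA. The other 6 members of the branch, the mitochondrial cycle enzymes Cs, Idh3a, Ogdh, Sucla2, Fh1 and Mdh2, were called in neither. They ranged from -0.13 to 0.06 with p53 siRNA and from -0.25 to 0.23 with Pint ASO.

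The anaplerotic enzymes went opposite ways from each other but the same way in both knockdowns. Pcx encodes pyruvate carboxylase, which makes oxaloacetate from pyruvate. The log2 values of Pcx were 10.73, 10.71 and 10.76 with control siRNA, 10.12, 10.15 and 10.16 with p53 siRNA, 10.60 and 10.67 with control ASO and 9.98, 10.10 and 9.95 with Pint ASO. Both knockdowns lay below their controls with no overlap. Pcx fell by 0.59 ± 0.05 (limma adjusted p = 3.79e-05) with p53 siRNA and by 0.62 ± 0.05 (limma adjusted p = 9.91e-05) with Pint ASO.

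Pck2 encodes the mitochondrial phosphoenolpyruvate carboxykinase, which turns oxaloacetate into phosphoenolpyruvate. With control siRNA the values of Pck2 were 9.09, 9.21 and 9.09, with p53 siRNA 9.71, 9.63 and 9.57, with control ASO 9.51 and 9.43 and with Pint ASO 9.71, 9.76 and 9.79. The control siRNA arrays were the lowest, the control ASO arrays came next, and each knockdown lay above its own control. Pck2 rose by 0.51 ± 0.06 (limma adjusted p = 0.000216) with p53 siRNA and by 0.28 ± 0.06 (limma adjusted p = 0.012) with Pint ASO, the latter lost without control ASO replicate 2. The p53 and Pint effects on Pcx and Pck2 did not differ at the threshold.

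Further genes of these routes, from lists of pathway members, were counted beside the 42, and their counts read against the shares of all probe sets given above (7.97% higher and 8.96% lower with p53 siRNA, 8.49% and 10.7% with Pint ASO). Of 20 other glycolysis and gluconeogenesis genes, 2 were called higher and 3 lower with p53 siRNA, and 1 higher and 6 lower with Pint ASO. Eno3, muscle enolase, rose by 0.85 ± 0.07 (limma adjusted p = 3.85e-05) with p53 siRNA, and Pgm2l1, a phosphoglucomutase relative, fell by 0.69 ± 0.11 (limma adjusted p = 0.00187). Of 12 other pyruvate and lactate genes, 1 was called higher with p53 siRNA and 3 lower with Pint ASO, including Slc16a7, which encodes MCT2, at -0.66 ± 0.09 (limma adjusted p = 0.0013). Of 7 other pentose phosphate and ribose genes, 1 was higher and 3 lower with p53 siRNA, and 2 were lower with Pint ASO. Prps2 changed by -0.70 ± 0.05 (limma adjusted p = 1.01e-05) with p53 siRNA and by -0.28 ± 0.05 (limma adjusted p = 0.0044) with Pint ASO. Shpk changed by -0.52 ± 0.06 (limma adjusted p = 0.000306) with p53 siRNA and was not called with Pint ASO. H6pd, the endoplasmic reticulum hexose 6-phosphate dehydrogenase, rose by 0.37 ± 0.04 with p53 siRNA and fell by 0.36 ± 0.05 with Pint ASO. Of 22 other TCA cycle and anaplerosis genes, 5 were higher with p53 siRNA, and 3 were higher and 5 lower with Pint ASO. The 5 lower genes included the cycle genes Idh3g at -0.30 ± 0.05 (limma adjusted p = 0.00423), Sdhc at -0.27 ± 0.05 (limma adjusted p = 0.00691) and Sdha at -0.26 ± 0.07 (limma adjusted p = 0.0363). The 3 higher genes were Gpt2 at 0.42 ± 0.06, Got1 at 0.26 ± 0.06 and Suclg1 at 0.26 ± 0.07.

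Of 15 hypoxia-response genes outside glycolysis, 8 were called higher and 1 lower with p53 siRNA, and 2 higher and 4 lower with Pint ASO. The shares over all probe sets were 7.97% and 8.96% with p53 siRNA, and 8.49% and 10.7% with Pint ASO. P4ha2, a collagen prolyl hydroxylase, rose by 0.63 ± 0.05 (limma adjusted p = 3.85e-05) with p53 siRNA and fell by 0.68 ± 0.06 (limma adjusted p = 8.45e-05) with Pint ASO. Car9, a carbonic anhydrase, rose by 0.80 ± 0.09 with p53 siRNA and fell by 0.37 ± 0.10 with Pint ASO. Ndrg1 rose in both. Between the control groups 5 of the 15 were already called, against 4.02% of all probe sets, with Vegfa (0.26) and Ndrg1 (0.37) higher and Bnip3 (-0.41), P4ha2 (-0.41) and Adm (-0.26) lower in the control ASO arrays. The median of the list was 0.21 with p53 siRNA and -0.04 with Pint ASO, beside 0.01 and 0.00 over all probe sets.

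**Figure D4:**
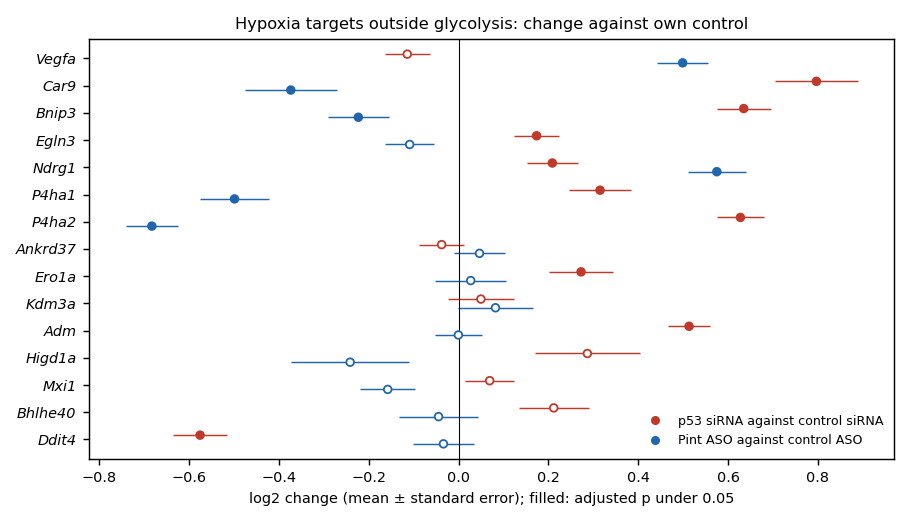
Log2 change, with SE, of the 15 hypoxia-response genes outside glycolysis in each knockdown against its own control, with filled points for an adjusted p under 0.05. P4ha1, P4ha2, Car9 and Bnip3 were higher with p53 siRNA and lower with Pint ASO, while Vegfa and Ndrg1 were higher with Pint ASO.

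Of 23 regulators listed, 5 were called higher and 2 lower with p53 siRNA, and 7 higher and 2 lower with Pint ASO. Over all probe sets 7.97% were called higher and 8.96% lower with p53 siRNA, and 8.49% and 10.7% with Pint ASO. The lower calls were thus near those shares. Hif1a, the oxygen-regulated subunit of hypoxia-inducible factor, rose by 0.16 ± 0.04 (limma adjusted p = 0.0285) with p53 siRNA and fell by 0.26 ± 0.05 (limma adjusted p = 0.00412) with Pint ASO. Epas1, also listed, rose more with p53 siRNA, by 0.54 ± 0.07 (limma adjusted p = 0.000452). So did Egln1, by 0.36 ± 0.08 (limma adjusted p = 0.0122). With Pint ASO neither Epas1 nor Egln1 was called, at -0.19 ± 0.07 and -0.17 ± 0.09. Myc, a transcription factor of growth genes, rose by 0.30 ± 0.06 with p53 siRNA (limma adjusted p = 0.0065) and by 0.87 ± 0.07 with Pint ASO (limma adjusted p = 4.85e-05), and it was already higher by 0.52 ± 0.07 in the control ASO than in the control siRNA arrays. These are transcript levels, and no enzyme activity or metabolite was measured.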

How the data were processed

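RNA from 11 MEF samples in 4 groups (3 control siRNA, 3 p53 siRNA, 2 control ASO, 3 Pint ASO) was labelled from 300 ng and hybridised by the authors to Affymetrix mouse arrays. The authors deposited log2 values for 34760 probe sets, background-corrected, normalised and summarised by RMA (version not given in the sources used here), with array medians from 7.31 to 7.38 and within-group correlations from 0.993 to 0.995. The number of arrays limits the precision. The main methods and the supplementary methods disagree on the array model. The platform of the deposited values is the model named in the supplementary methods, and genes were assigned here through its annotation.

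Genes were named from the platform annotation (21640 probe sets with 1 symbol, 1321 with several, which named none), with symbols updated through RefSeq identifiers. Testing required a log2 value over 6 (64 linear) on 2 or more arrays of any 1 group, which 26038 probe sets met. One limma model (limma 3.58.1, R 4.3.3, tested on simulated data) held the 4 groups, and a gene with several probe sets was read from the one with the highest mean. Members and lists were chosen with earlier results of these data known. Every member is accounted for, those called in either knockdown are named, and the 12 with the largest called change are given by array. Promoters came from RefSeq (GRCm38.p6), 250 bases searched. Alternatives were other filters, centring, repeated quantile normalization, a variance trend, separate fits per arm, a replicate block, other probe set choices and leaving out each array, and the other probe set of Hk1, Pkm and Ldhb was added after seeing the data.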

Additional observations from a re-analysis of the deposited data

Results flagged for a closer look

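The effects of the 2 knockdowns differed, by the test of Pint effect minus p53 effect (limma, adjusted p under 0.05), for 23 members. The log2 differences were -1.12 for Slc16a1, -1.11 for Slc16a3, -1.10 for Idh2, -1.02 for Pdk1, -0.97 for Idh1, -0.85 for Aldoc, -0.78 for Pfkl, -0.66 for Tpi1, -0.64 for Pdk3, -0.52 for Pdk2, -0.51 for Pfkp, -0.48 for Pfkfb3, -0.44 for Pgk1, -0.42 for Pfkm, -0.42 for Mdh1, -0.36 for Pgam1, -0.36 for Pdha1, -0.32 for Pkm, -0.27 for Pdk4 and -0.25 for Ldha. They were positive for Eno2 at 0.55, Rpe at 0.40 and Pfkfb2 at 0.34. The call was lost without control ASO replicate 1 for Pfkfb3, Pdk3, Pdha1 and Mdh1, when any of 8 arrays was left out for Ldha, 7 for Pfkfb2 and 5 for Pdk4. That of Pfkfb2 was also lost with no filter and after median centring, and that of Pkm on its other probe set. The other 16 were called whichever array was left out. Each knockdown used its own kind of reagent and its own controls, so reagent and target cannot be told apart in these differences.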

How the results depend on the processing

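No call of a member changed sign under any alternative run. With p53 siRNA, higher calls ranged from 12 to 18 and lower calls from 5 to 7 over all alternatives, and 18 of the 22 calls were kept whichever array was left out. With Pint ASO, 9 of the 20 calls were so kept. Higher calls with Pint ASO numbered 0 and lower calls 6 when each knockdown was fitted with its own control (3.18% and 4.08% of all probe sets, against 8.49% and 10.7%). Replicate numbers gave no positive correlation of deviations in the siRNA arm, where same-numbered arrays were at -0.284, -0.181 and -0.0371. In the ASO arm the correlations were -0.0463 and -0.42 by titles, but 0.42 and 0.375 by descriptions. Whether the ASO arrays were paired by description number was not tested, and the main fit used no block. With a replicate block by title number, the higher and lower calls with Pint ASO were 0 and 6 (2.04% and 2.99% of all probe sets), and those for the difference 1 and 10 (3.41% and 3.99%, against 9.15% and 9.40%). By description number, the Pint ASO calls with the block were 0 and 9 (4.44% and 5.56%), and the p53 siRNA calls were 12 and 6 by title (3.97% and 4.81%, against 7.97% and 8.96%) and 15 and 6 by description (5.53% and 6.62%). Leaving out single arrays gave 0 to 2 higher and 10 to 17 lower calls with Pint ASO, 2 to 4 and 15 to 20 for the difference, 13 to 16 and 5 to 7 with p53 siRNA, and 0 to 1 and 0 to 2 between the controls. Lower calls between the controls were 4 after repeated quantile normalization and 5 with a variance trend or with 1-symbol probe sets alone, where 1.99%, 2.57% and 3.24% of all probe sets were called lower, against 1.73%. The cause was not tested. The 2 control ASO arrays limit every Pint ASO value.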
